A study of Mus musculus with 30 samples.

Results

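The cytosolic ribosome is built from RNA and a set of ribosomal proteins (RPs), and the genes of these proteins were described here across whole mouse brain. Members were taken by symbol: protein-coding genes named Rpl or Rps with a number, plus Rplp0, Rplp1, Rplp2 and Rpsa, without the S6 kinases (Rps6k) and Rps19bp1. The rule found 82 members among 19737 genes, 50 of the large subunit and 32 of the small subunit. All but 1, Rpl3l, reached the mean value of 10 that a gene needed for testing, so 81 were tested. Rps4l matched by symbol but is annotated as a pseudogene and is no member, and Rpl10l and Rpl39l were not analysed here.

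The 30 libraries came from whole brains of male C57BL/6N mice, 1 library per mouse, in 6 groups of 5. At postnatal day 10 (P10), untreated Arid1b+/- mice (HT, a heterozygous germline deletion of exon 5 of Arid1b, which encodes a subunit of the BAF chromatin remodelling complex) were set beside wild-type mice (WT). At P120 each genotype had been nursed by dams that drank either the serotonin reuptake inhibitor fluoxetine (0.1 mg/ml, sweetened with 0.2% saccharin; HT-Flx, WT-Flx) or the same sweetened water alone (HT-Veh, WT-Veh) from P3 to P21, followed by plain water until P120. The drug thus reached the pups through milk, and the P10 mice had no saccharin, so age and this exposure cannot be told apart in comparisons of P120 with P10. A whole brain mixes cell types, and fewer cells of a type cannot be told apart from less RNA per cell.

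Values were sequencing signal that the authors had already scaled to size factors, so the depth behind them is unknown and no counting interval can be given. The values summed to between 31578614 and 41801037 per library. Arid1b, the deleted gene, ranged from 2961 to 3392 in 14 of the 15 WT libraries and from 1973 to 2616 in 14 of the 15 HT libraries. The libraries labelled WT-Veh 2 and HT-Veh 2 went against their labels, at 2320 and 3361. The comparison of HT-Veh with WT-Veh was made without both of them, with all 5 and 5 libraries as an alternative, and every other comparison with a vehicle group is given with and without them. All 10 neuron markers had a signal in every library, and none of the marker lists of 8 cell types had a gene at 0 in any library.

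Ribosomal proteins are made in near equal numbers, since each ribosome holds most of them once. Their mRNAs are short, abundant and stable, and most begin with a cytosine followed by a run of pyrimidines, the 5′ terminal oligopyrimidine (TOP) tract, through which mTOR signalling and the RNA-binding protein LARP1 adjust their translation. Growing neurons translate RP mRNAs in dendrites and axons as well as in the soma, and variants that reduce RP dosage cause ribosomopathies such as Diamond-Blackfan anaemia. RP genes also left many processed copies across the mouse genome, some of which are listed as genes of their own.

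The start sites showed a feature that the symbol rule did not use. RefSeq promoter windows, from 250 bases before to 50 bases after an annotated start on GRCm38.p6, were found for 62 members, with 74 windows in all. The letters CTTTCC occurred on the gene's own strand within 30 bases either side of the start in 16.2% of the members' windows and in 2.89% of 32851 windows of all genes. Over the whole window on the same strand the shares were 37.8% and 14.1%, and on the opposite strand 18.9% and 14.4%. The letters CCGGAAG, a core to which Ets family factors bind, occurred on either strand in 35.1% of the members' windows and 8.86% of all, and TCTCGCGA in 16.2% and 0.995%. TCTCGCGA and its reverse complement overlap each other in a palindrome, and 1 window can hold several of these motifs. Windows of 30 bases, 15 before and 15 from the annotated start, are printed for 4 members whose start holds CTTTCC (in capitals), since these members are named again in the results or show the tract at its clearest.
Rpl38, chr11:114668565-114668594, plus strand: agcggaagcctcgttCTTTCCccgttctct
Rpl18, chr7:45718056-45718085, plus strand: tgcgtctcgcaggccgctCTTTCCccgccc
Rpl35, chr2:39005117-39005146, minus strand: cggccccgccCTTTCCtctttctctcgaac
Rps27, chr3:90213634-90213663, minus strand: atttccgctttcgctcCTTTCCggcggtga

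In the Rpl38 window the letters CTTTCC begin at the annotated start itself, and in the Rpl35 window they end at it. A match of letters is a description and not a measured start. No measurement of translation or of 5′ ends was made in these samples.

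The coding sequences of Rps27 and its relatives are printed because 2 of the 3 cannot be separated by reads in this stretch. Rps27rt, listed as a gene of its own at chr9:114982366-114982739 (minus strand), has a coding sequence identical to that of Rps27 over all 255 bases. Rps27l (chr9:66946086-66949516, plus strand), a paralog known as a p53 target, differs from Rps27 (chr3:90212522-90213651, minus strand) at 61 bases, shown in capitals. All 3 come from the GENCODE transcripts of GRCm38.
Rps27: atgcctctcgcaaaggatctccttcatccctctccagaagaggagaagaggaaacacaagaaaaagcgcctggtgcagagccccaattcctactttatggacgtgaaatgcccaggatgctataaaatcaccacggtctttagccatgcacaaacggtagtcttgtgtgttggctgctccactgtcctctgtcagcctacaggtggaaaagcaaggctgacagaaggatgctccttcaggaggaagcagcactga
Rps27l: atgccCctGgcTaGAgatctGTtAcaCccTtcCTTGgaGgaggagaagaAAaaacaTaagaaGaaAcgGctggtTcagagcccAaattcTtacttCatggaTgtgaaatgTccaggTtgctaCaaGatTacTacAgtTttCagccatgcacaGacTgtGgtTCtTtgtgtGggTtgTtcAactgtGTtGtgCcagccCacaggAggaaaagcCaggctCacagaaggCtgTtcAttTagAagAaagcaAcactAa

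The other paralog pairs were further apart. Rpl36a and Rpl36al shared 87.9% of aligned coding bases, Rpl3 and Rpl3l 73.3%, Rpl22 and Rpl22l1 68.2%, and Rpl7 and Rpl7l1 54.1%. Of the 82 members, 70 shared at least 20% of their 31-base words with another annotated gene and 28 shared at least 50%. The other 12 shared less than 20%.

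RP genes stood among the most abundant genes of the brain at every age and in every group. Divided by the length of the longest annotated transcript, the members had a median level of 4751 normalized units per kb over the 30 libraries (quartiles 2442 and 6842), against 179.6 for all genes tested. Of the 82 members, 81 lay above the median of all genes. The members together took between 0.995% and 1.69% of the summed values of a library. Their transcripts were short, with a median of 941.5 bases against 2863 for all genes, and slightly richer in GC, at 51.6% against 49.7%.

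The members spread widely in RNA level. The highest level per kb was that of Rplp1 (27766), an acidic protein of the stalk that recruits elongation factors, followed by Rpl41 (16622), which encodes a very short basic peptide of the large subunit, and Rps15 (16252), a small-subunit protein near the decoding region. The lowest were Rpl3l (6.4), Rpl12 (303) and Rps27 (309.8). Without Rpl3l the highest and lowest levels per kb differed 91.5-fold. The large subunit had a median of 4412 per kb and the small subunit 5159.

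The choice of transcript length moved single members strongly. With the median length over a gene's annotated transcripts in place of the longest, Rps15a went from 940.1 to 7625 per kb, and Rplp2, another stalk protein, from 3841 to 8246. The Spearman correlation of the levels per kb between these lengths was 0.83 over the 82 members, as a description. The order of members by level is therefore only approximate, while the length chosen does not enter the difference of 1 member between groups. The differences could still vary with length. Over the members, the Spearman correlation of transcript length with the difference ran from -0.33 (HT with age) to 0.21 (HT against WT at P10), as a description.

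**Figure D1:**
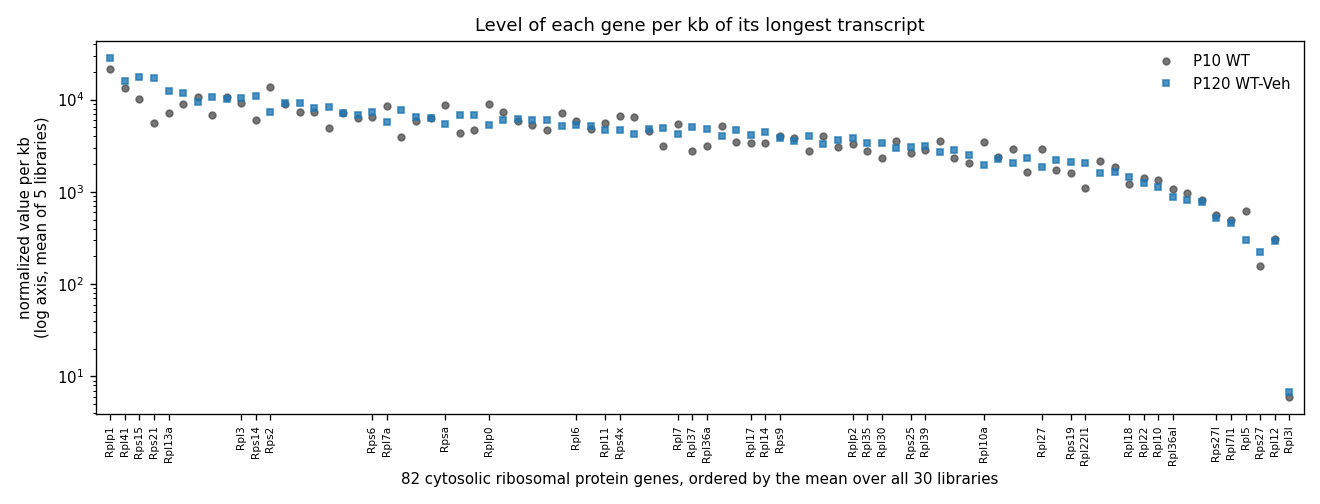
Level of each of the 82 members in normalized units per kb of the longest annotated transcript (log axis), as the mean of 5 libraries in P10 WT (circles) and WT-Veh at P120 (squares), ordered by the mean over all 30 libraries, with some members labelled. The levels decline gradually from Rplp1 at the left, and Rpl3l lies far below the rest in both groups.

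Low values of a few canonical members went together with high values of a copy. Of the 82 members, 77 had a mean value over 1000, and the 5 below were Rpl3l, Rps27l, Rps27, Rpl12 and Rpl5. The value of Rps27 was 142 over all libraries, whereas its copy Rps27rt had 2474. Rpl12 (377) stood against 4614 for the pseudogene Gm10275, and Rpl5 (814) against 5115 for Gm15500. The same order was found for Rpl10 and Rpl10-ps3 (1099.8 and 5139), Rps23 and Rps23-ps1 (2171 and 3181), and Rpl27a and Gm7536 (2021 and 2568). How the authors' quantification shared reads between such sequences cannot be recovered from the values, so the levels of these 6 members are uncertain. Each is also given summed with its copies in some comparisons below. Other members had an abundant copy with a value below their own and share this limit. Among them were Rpl10a (2061, with 1711 for Rpl10a-ps1) and Rpl27 (1690, with 1145 for Gm11518).

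**Figure D2:**
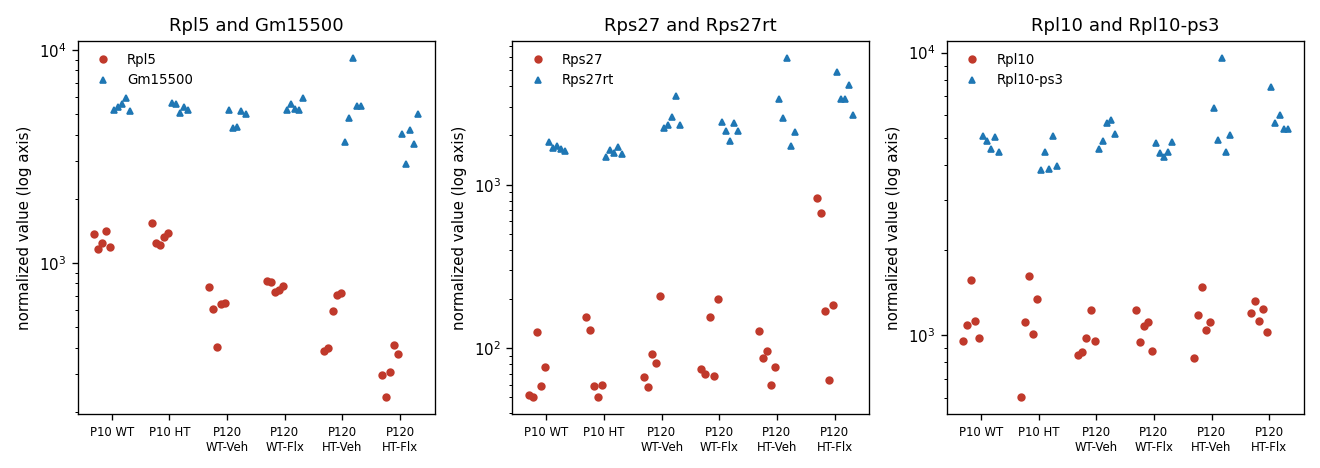
Normalized value (log axis) of Rpl5, Rps27 and Rpl10 (circles) and of the copy of each that is listed as a separate gene (triangles), by group, with 1 point per library. Every copy lies above its member in all 30 libraries, and Rpl5 is lower at P120 than at P10 while the P10 and P120 values of Gm15500 overlap.

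The first question was how RP transcripts changed from P10, when the brain still grows, to P120. In vehicle-fed WT mice at P120, 34 of 81 members were higher and 21 lower than in WT pups at P10 (limma on log2 values, Benjamini-Hochberg adjusted p under 0.05 over all genes). Over all 17927 genes tested, 28.9% were called higher and 29.4% lower, 58.3% together. The median log2 difference of the members was 0.10 beside -0.01 for all genes. In HT mice the same comparison gave 31 higher and 6 lower, where 25.8% and 25.3% of all genes were called (51.1% together), with medians of 0.35 and -0.02. No library was shared between these comparisons.

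Rps21, a protein of the small subunit, changed most. In P10 WT its values were 2172, 1926, 2227, 2427 and 2187, and in WT-Veh 6254, 6405, 7039, 8366 and 6128. All P120 values lay above all P10 values in both genotypes. The log2 difference was +1.64 (SE 0.09, adjusted p = 1.6e-08) in WT, from 2188 ± 179 to 6839 ± 923 (SD, n = 5), with an exact permutation p of 0.00794 (two-sided), the smallest that 5 against 5 allows. In HT, Rps21 went from 2087 ± 137 to 8195 ± 3817, a difference of +1.87 (SE 0.22, adjusted p = 2.1e-05).

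Among the other members that rose in both genotypes, Rpl37, of the large subunit, rose by 0.87 in WT (adjusted p = 3.2e-07), and Rps14, whose loss underlies the anaemia of the 5q- syndrome, by 1.15 in HT (adjusted p = 0.00059). Rps19, the gene most often mutated in Diamond-Blackfan anaemia, rose by 0.38 and 0.62 (adjusted p = 0.00034 and 0.0029). Rps6, the target of the S6 kinases, had +0.16 in WT, which missed the threshold (adjusted p = 0.097), and +0.46 in HT (adjusted p = 0.027).

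The members that fell in both genotypes included the P0 protein of the stalk, Rpsa and Rps2. Rps2, which lines the entry of the mRNA channel, had values of 14661, 14694, 15414, 15822 and 13467 in P10 WT and 8395, 8516, 8669.9, 7864 and 7104 in WT-Veh. No WT-Veh value reached the P10 range. The difference was -0.87 (SE 0.07, adjusted p = 3.6e-07) in WT and -0.72 (SE 0.13, adjusted p = 0.00043) in HT. Rplp0, the scaffold on which the P1 and P2 dimers sit, fell in both genotypes, by 0.77 and 0.56 (adjusted p = 1.3e-05 and 0.0077), and Rpsa, also known as the laminin receptor, by 0.70 and 0.58 (adjusted p = 4.1e-06 and 0.0024). Rpl10a fell by 0.82 in WT (adjusted p = 1.6e-06) and by 0.52 in HT (adjusted p = 0.0018).

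Within the stalk the partners of Rplp0 went the other way. Rplp1 rose by 0.41 in WT and 0.59 in HT (adjusted p = 0.00023 and 0.021), and Rplp2 by 0.21 in WT (adjusted p = 0.026), with +0.33 in HT (adjusted p = 0.17). After a correction of each library for GC content and transcript length, Rplp0 still fell (-0.97 and -0.78), whereas Rplp1 was at 0.07 in both genotypes and Rplp2 at -0.04 and -0.09, none of them called. The direction of Rplp2 with age thus turned under this correction. Rpl3 rose by 0.18 in WT (adjusted p = 0.028) and was at -0.02 after the same correction.

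Rpl5, which forms a particle with Rpl11 and 5S RNA and binds Mdm2, had the largest fall. Its values in P10 WT were 1362, 1164, 1237, 1405 and 1192, and in WT-Veh 773, 607, 401, 641 and 645. The difference was -1.08 (SE 0.14, adjusted p = 2.8e-05) in WT and -1.30 (SE 0.18, adjusted p = 8.4e-05) in HT. Summed with Gm15500, the fall was smaller in WT, at -0.32 (adjusted p = 0.0026), and did not pass in HT, at -0.15 (adjusted p = 0.5). Rps27 summed with Rps27rt was higher at P120, at +0.59 (adjusted p = 0.00034) in WT and +0.81 (adjusted p = 0.018) in HT, whereas alone it was at +0.40 and +0.09, not called. Rpl27a, called in neither genotype alone, was at -0.27 (adjusted p = 0.0079) in WT and -0.04 (adjusted p = 0.83) in HT when summed with Gm7536. Rps23, called higher in both alone, was at +0.45 and +0.65 summed with Rps23-ps1 (adjusted p = 8.7e-05 and 0.0069). Rpl11, the partner of Rpl5, fell by 0.25 in WT (adjusted p = 0.007) and had +0.11 in HT (adjusted p = 0.47).

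Set side by side, 29 members were called higher and 6 lower in both genotypes. A further 15 were called lower and 5 higher in WT alone, 2 were called higher in HT alone, and 24 in neither. The fitted differences had the same sign for 67 of 81 members. Over all genes, 58.3% were called with age in WT and 51.1% in HT. The shares of all genes called alike in both, or with the same sign, were not worked out. These joint counts therefore cannot be read as a trait of the members. Groups that did not overlap at all were found for 27 higher and 17 lower members in WT, where 22.6% and 23% of all genes were so separated, and for 29 higher and 6 lower in HT, where the shares were 20.4% and 19.8%. Whether the age difference itself differed between genotypes was not tested.

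**Figure D3:**
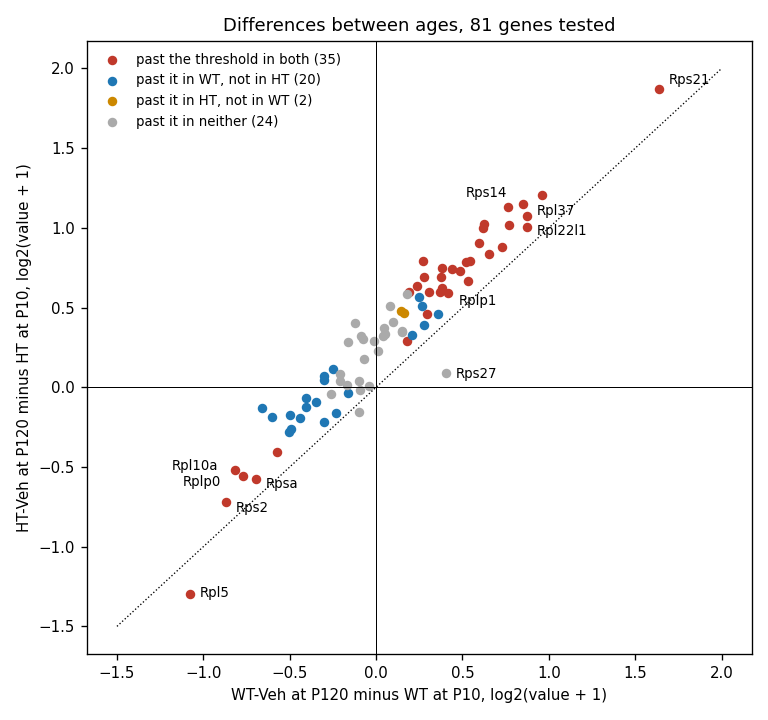
Log2 difference between P120 and P10 in vehicle-fed WT mice (horizontal axis) and HT mice (vertical axis), with 1 point per tested member, coloured by the genotypes in which it passed the threshold, and a dotted line of equal difference. Rps21 lies apart at the upper right and Rpl5 at the lower left, and most members lie above the dotted line.

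The balance of higher and lower members with age moved with the scaling. When every library was scaled to a common total, the median over all genes fell to -0.12 in WT and -0.18 in HT, and 24 members were called higher and 29 lower in WT, and 25 and 10 in HT, beside 23.4% and 36.2% of all genes in WT and 19.4% and 32.7% in HT. After the GC and length correction the counts were 29 and 27 in WT and 23 and 12 in HT, beside 31.8% and 27.9% of all genes in WT and 29.5% and 26.7% in HT. Without the libraries numbered 2 of the vehicle groups, 34 were higher and 20 lower in WT, and 28 and 6 in HT, beside 56.1% and 45.6% of all genes called. Without HT-Veh 3, the library with the highest RP level of its group, 28 were higher and 12 lower in HT, where 49.5% of all genes were called, and the median member was 0.18. The WT median was 0.17 without WT-Veh 2 and 0.06 without WT-Veh 4. The 10 proliferating progenitor markers all fell, from summed values of 16280 to 22013 at P10 to values of 2445 to 3836 in the vehicle groups at P120. The summed microglia markers of WT went from 6956 to 9206 at P10 to 9029 to 12384 in WT-Veh at P120. Of the 10 markers of each cell type, 7 microglia and 7 choroid plexus markers were higher and 1 of each lower in WT, and 6 mature oligodendrocyte markers were higher. Neuron and astrocyte markers each had 4 higher and 1 lower, endothelial markers 5 and 5, and 3 of 6 erythroid markers were lower. The part of these cells in the RP differences was not tested.

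The second question was whether Arid1b+/- pups differed from WT pups at P10 before any treatment. No member passed the threshold, and 0.0224% of all genes did (0.0112% in each direction). At an unadjusted p under 0.05, limma gave 11 members, 10 of them lower in HT, beside 12.6% of all genes, and limma without the trend called none after adjustment. The members' median log2 difference was -0.06 beside -0.01 for all genes, and 67 members lay below zero. No member separated the groups completely, where 1.43% of all genes were wholly higher and 1.69% wholly lower.

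Rpl27, of the large subunit, had the largest difference toward lower values, -0.41 (SE 0.17, adjusted p = 0.37). Its values were 904, 1868, 1743, 2058 and 1841 in HT and 2178, 2254, 2115, 2167 and 2046 in WT. The first HT library lay far below the others, and its contrast of GC-rich against GC-poor genes (the mean log2 deviation of the genes highest in GC less that of the genes lowest in GC) was also the lowest of the group, at -0.83 against -0.57 on average. Rps27l was at -0.27 (adjusted p = 0.33), and on the other side Rps27 was at +0.25 and Rpl30 at +0.15 (adjusted p = 0.76 and 0.34). The genes of the stalk, Rplp0, Rplp1 and Rplp2, were at -0.10, -0.06 and -0.02, none past the threshold.

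In adult mice that had received vehicle, no member was called between HT-Veh and WT-Veh over 4 libraries each, and 0% of all genes were. At an unadjusted p under 0.05, limma gave 0 members and 1.29% of all genes. The exact permutation test cannot go below 0.0286 at this size. The median difference of the members was 0.20 beside 0.01 for all genes, and 78 of 81 members lay above zero. This common direction rested on 1 library. Without HT-Veh 3 the median was -0.01 and 34 members lay above zero, without HT-Veh 4 it was 0.35, and with all 5 and 5 libraries it was 0.18 with 0 called.

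Rpl17 and Rps25 had the largest differences toward HT-Veh, at +0.46 and +0.46 (SE 0.24 and 0.27, adjusted p = 1 for each). Rps25 is known for its part in initiation at internal ribosome entry sites. For Rps25 the HT-Veh mice had 5912, 3729, 9611, 3669.8 and 3935 and the WT-Veh mice 3656, 3740.1, 4422, 4064 and 3519.9, in the order of their numbers, of which the second did not enter the test. The ranges overlapped, and HT-Veh 3 stood above all others. Toward lower values, Rps27 was at -0.22 and Rpl7l1 at -0.16. No member separated the groups, where 0.534% of all genes were wholly higher and 0.506% wholly lower.

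The third question was what early fluoxetine left behind in the adult brain of each genotype. Between HT-Flx and HT-Veh no member was called, with 0% of all genes called. An unadjusted p under 0.05 was reached by 6 members (4 higher, 2 lower) and by 23.1% of all genes. The members' median was 0.18 and 62 lay above zero, with a median of 0.02 for all genes. Without HT-Veh 2 the median was 0.13, still with 0 called. It was 0.38 without HT-Veh 3, 0.10 without HT-Veh 4 and 0.08 without HT-Flx 1. Without HT-Flx 1 and HT-Veh 3, the libraries highest in RP level, again 0 were called. The GC contrast ran from -0.45 to 1.01 in HT-Veh and from 0.77 to 1.52 in HT-Flx, and its part in the median was not tested. The members' mean log2 level less that of all other genes averaged 3.61 in HT-Flx and 3.41 in HT-Veh. After the GC and length correction these averages were 3.48 and 3.33.

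Rps27 was at +1.56 (SE 0.56, adjusted p = 0.22) and Rpl27 at +0.50. For Rps27 the HT-Flx mice had 829, 675, 169, 64.4 and 183 and the HT-Veh mice 128, 87.5, 95.8, 59.2 and 76.4. The groups overlapped, and these low values are those of a gene whose coding sequence a more abundant copy shares. On the lower side Rpl5 was at -0.76 and Rpl7 at -0.46 (adjusted p = 0.22 and 0.25). No member separated the groups, where 1.04% and 0.588% of all genes were wholly higher or lower.

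In WT mice the difference ran the other way without passing the threshold. Between WT-Flx and WT-Veh 0 members were called, beside 0% of all genes. At an unadjusted p under 0.05 there were 25 members, 23 of them lower in WT-Flx, and 25.2% of all genes. The members' median was -0.10 against 0.00 for all genes. Without WT-Veh 2 it was -0.13 with 0 called, and without WT-Veh 1, 5 members were called lower, where 7.84% of all genes were called in either direction. Groups were wholly apart for 5 members, all lower in WT-Flx, where 4.12% of all genes were wholly lower and 2.29% wholly higher. The GC contrast was -0.47 to -0.30 in WT-Flx and -0.22 to 0.62 in WT-Veh, and the Spearman correlation of GC content with the difference was -0.39 over the members and -0.67 over all genes, as a description. The members' mean log2 level less that of all other genes averaged 3.12 in WT-Flx and 3.23 in WT-Veh. After the GC and length correction these averages were 3.11 and 3.20. The part of GC content was not tested.

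The largest differences toward higher values in WT-Flx were those of Rpl5, at +0.38, and Rpl7, at +0.21 (adjusted p = 0.14 and 0.29). The WT-Flx mice had 823, 815, 732, 748 and 782 for Rpl5 and the WT-Veh mice 773, 607, 401, 641 and 645. Both genes had the opposite sign in HT mice, with neither called in either genotype.

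The widest difference of the members was that between the fluoxetine groups. In HT-Flx 56 of 81 members were higher and 3 lower than in WT-Flx, whereas over all 17799 genes tested 33.1% were higher and 30.5% lower, 63.7% in all. The median member stood at 0.49 beside 0.02 for all genes. Groups did not overlap for 47 members that were higher and 3 that were lower, where 25.6% and 22.9% of all genes were so separated. By subunit, 35 of 49 tested large-subunit members were higher and 2 lower, and 21 and 1 of 32 small-subunit members.

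Rpl18, of the large subunit, had the largest difference among the members called higher. The HT-Flx mice had 9184, 6907, 5771, 7199 and 5642 and the WT-Flx mice 3394, 3212, 3327, 3684 and 3772. Every HT-Flx value lay above every WT-Flx value. The means were 6941 ± 1428 and 3478 ± 239 (SD, n = 5), a difference of +0.98 (SE 0.12, adjusted p = 5e-05) with an exact permutation p of 0.00794.

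Rpl13a, a protein also known to silence inflammatory transcripts once it leaves the ribosome, differed by +0.87 (SE 0.13, adjusted p = 0.00014). Its ranges, 14345 to 26290.2 and 9535 to 11069, did not meet. The 3 stalk genes rose together, Rplp0 by 0.62, Rplp1 by 0.67 and Rplp2 by 0.76 (adjusted p = 0.00012, 0.00071 and 0.00035). Rpsa was higher by 0.42 (adjusted p = 0.008), while Rps19, Rps6 and Rpl11 did not pass, at +0.24, +0.15 and +0.07.

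The 3 members called lower were Rpl5, Rpl7 and Rps4x. For Rpl5 the HT-Flx mice had 298, 234, 306, 412 and 373 and the WT-Flx mice 823, 815, 732, 748 and 782, with no overlap. The means were 324 ± 69.4 and 779.8 ± 40 (SD, n = 5), a difference of -1.29 (SE 0.14, adjusted p = 3.4e-05). Rpl7 was at -0.42 (SE 0.13, adjusted p = 0.012) and Rps4x, an X-linked gene of the small subunit, at -0.28 (SE 0.07, adjusted p = 0.0041). Summed with Gm15500, Rpl5 was still lower, at -0.56 (adjusted p = 0.0013). Rps27 was at +1.33 alone, short of the threshold (adjusted p = 0.074), and summed with Rps27rt it was higher, at +0.78 (adjusted p = 0.00067). Rpl12 and Rpl10 summed with their copies were at +0.45 (adjusted p = 0.02) and +0.35 (adjusted p = 0.0047). With all members summed in this way, 58 were higher and 4 lower, beside 33.1% and 30.6% of all genes.

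HT-Flx and WT-Flx libraries also differed in the general relation of level to GC content. The contrast of GC-rich against GC-poor genes of HT-Flx mice ran from 0.77 to 1.52 and that of WT-Flx mice from -0.47 to -0.30, on the log2 scale. A like contrast, of the genes with the shortest transcripts less those with the longest, ran from 0.09 to 0.76 and from -0.11 to 0.05. Over all genes, the Spearman correlation of GC content with the difference was 0.78, and over the 81 members it was 0.37, as a description. Members called higher had a median GC of 52.5%, those called lower 45.8% and the rest 50.1%. After the GC and length correction 47 members were higher and 4 lower, beside 20.3% and 15.6% of all genes, and Rpl18 stood at 0.68, Rpl13a at 0.72 and Rpl5 at -0.68, each still called, while Rplp1 (0.20) and Rpl7 (-0.21) were not. Scaled to a common total, where the median of all genes was -0.23, 39 were higher and 11 lower, beside 21.2% and 41.1% of all genes. The summed microglia markers ran from 10972 to 17284 for HT-Flx mice and from 8937 to 10923 for WT-Flx mice, with 6 of 10 markers higher and 1 lower, and 3 of 6 erythroid markers were higher and none lower. Astrocyte markers had 5 higher and 5 lower of 10, neuron markers 4 and 4, mature oligodendrocyte markers 4 and 3, choroid plexus markers 3 and 2, endothelial markers 2 and 4, and progenitor markers 0 and 4. The part of these cells in the result was not tested.

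**Figure D4:**
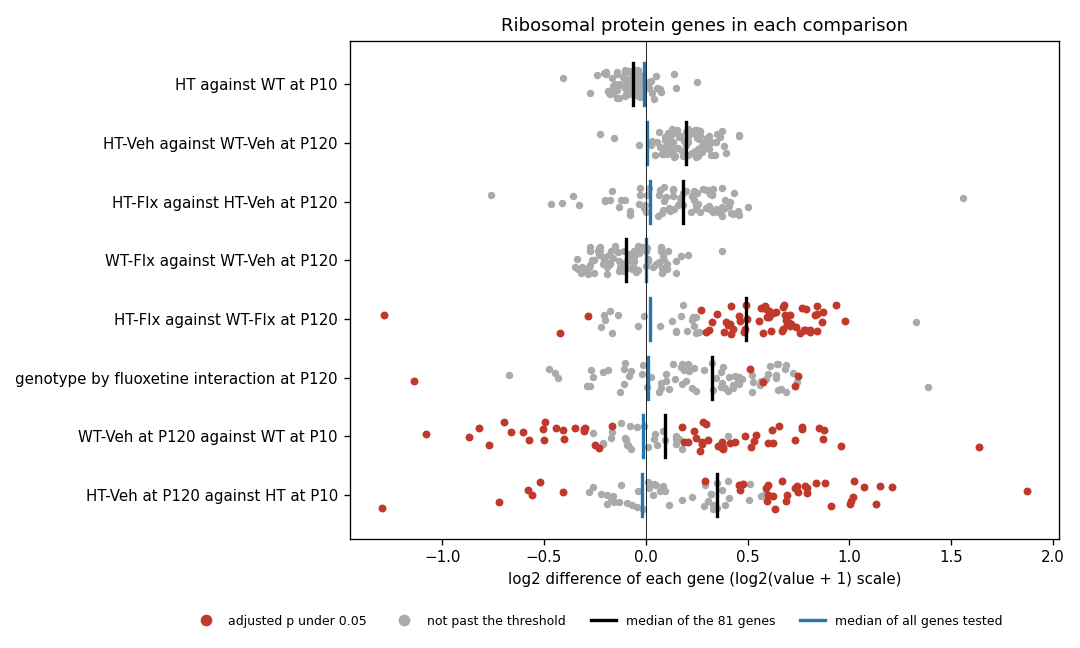
Log2 difference of each of the 81 tested members (horizontal axis) in the 8 comparisons, with members past the threshold in red, the median of the members as a black bar and that of all genes tested as a blue bar. The members' medians lie between -0.10 and 0.20 for genotype at P10, genotype under vehicle and fluoxetine within a genotype, and at 0.49 between HT-Flx and WT-Flx.

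The difference in fluoxetine response between genotypes was tested as an interaction over all 4 adult groups. It gave 4 members higher and 1 lower, where 15.8% of all genes were called higher and 11.5% lower (27.3% in all). Higher values mean a rise with fluoxetine in HT relative to WT. Rpl14 was at +0.73 (SE 0.27, adjusted p = 0.049), Rps9 at +0.58 (SE 0.20, adjusted p = 0.041) and Rplp0 at +0.51 (SE 0.19, adjusted p = 0.048). Rpl5 was at -1.14 (SE 0.27, adjusted p = 0.035), and at -0.72 (adjusted p = 0.037) summed with Gm15500. Rplp0 is given since it belongs to the well-known members, a list chosen with earlier results of these data known.

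The count of calls depended on the libraries and the scaling. After the GC and length correction, and without the libraries labelled HT-Veh 2 and WT-Veh 2, 0 members were called. Leaving out HT-Veh 3 instead raised the count to 38 higher and 1 lower, beside 37.1% of all genes. Scaled to a common total, 0 were higher and 5 lower, where 8.42% of all genes were higher and 18.1% lower. The median of the members was 0.33 beside 0.01 for all genes, and 0.27 without the number 2 vehicle libraries.

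Rpl3l and the other paralogs were set beside their partners. Rpl3l, known as a form of heart and skeletal muscle, ranged from 2.66 to 15.8 over all libraries, while Rpl3 ranged from 10734 to 17991. Rpl3l was too low to test. Rpl22l1 had 539 to 779.6 at P10 and 871 to 2295 at P120. It rose with age by 0.87 in WT and 1.01 in HT (adjusted p = 1e-05 and 0.0027), whereas Rpl22, which is known to bind and repress the transcript of its paralog, had -0.21 and +0.08, not past the threshold. Between HT-Flx and WT-Flx both were higher, by 0.84 and 0.57.

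Rpl36a rose with age by 0.60 in WT (adjusted p = 0.00036), from 1503 ± 125 to 2298 ± 416, while Rpl36al fell by 0.30 (adjusted p = 0.0054), from 1375 ± 47.8 to 1119 ± 126. In HT they were at +0.91 (called) and +0.07 (not called). Rpl7 fell with age in WT by 0.41 (adjusted p = 0.01) and Rpl7l1 was at -0.10, not called. Rps27l was higher in HT-Flx than in WT-Flx by 0.71 (adjusted p = 0.00033), and Rpl39 by 0.78 (adjusted p = 0.0011). Rps4x fell with age in WT by 0.50 (adjusted p = 5.7e-05), and the pseudogene Rps4l had values of 489.6 to 1137. Rpl10 was called in none of the comparisons, alone.

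The median spread between mice of a group was smaller over RP genes than over all genes tested, except in the HT adults. The within-group SD of log2 values had a median of 0.07 over members and 0.11 over all genes in P10 WT, 0.11 and 0.14 in P10 HT, 0.16 and 0.22 in WT-Veh and 0.09 and 0.16 in WT-Flx. In HT-Veh it was 0.50 against 0.34 and in HT-Flx 0.29 against 0.26. Most members lie far above the typical level of all genes, and genes were not matched on level here, so level and gene class cannot be told apart. No test was made of these differences. The most variable members were Rps27 (0.85), Rpl3l (0.53) and Rpl35 (0.37), and the least variable Rpl6 (0.11), Rpl7a (0.13) and Rpl3 (0.13).

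The members' mean log2 level less that of all other genes summarised each mouse. It was 2.98 to 3.13 in P10 HT, 3.05 to 3.19 in P10 WT, 3.06 to 3.20 in WT-Flx and 3.11 to 3.38 in WT-Veh. In HT-Veh it was 3.60, 3.25, 4.03, 3.01 and 3.16, and in HT-Flx 4.04, 3.50, 3.67, 3.39 and 3.46. HT-Veh 3 and HT-Flx 1 stood above the other mice of their groups. HT-Veh 3 held the highest value of its group for 72 of 81 members and HT-Flx 1 for 71, where the same libraries were highest for 27.8% and 29.7% of all genes. After the GC and length correction they stood at 3.81 and 3.75, the highest of their groups. Their contrasts of short against long transcripts were also the highest of their groups, at 0.50 and 0.76. The part of length apart from GC content was not tested. Over the 11 tested members with little shared sequence, HT-Veh ranged from 3.03 to 3.97 and HT-Flx from 3.50 to 4.13.

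**Figure D5:**
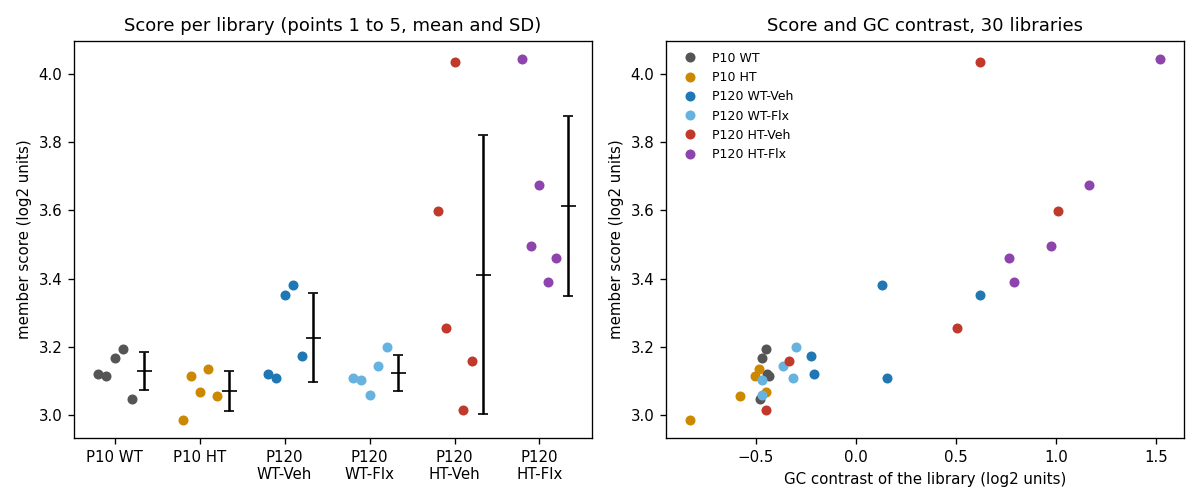
Mean log2 level of the 81 tested members less the mean of all other genes tested, with 1 point per library, at the left by group with mean and SD (n = 5) and at the right against the GC contrast of the library. The 10 P10 libraries and the 5 WT-Flx libraries lie between 2.98 and 3.20, and HT-Veh 3 and HT-Flx 1 lie highest at 4.03 and 4.04, with GC contrasts of 0.62 and 1.52.

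Some genes of the ribosome have symbols outside the rule. Fau encodes an RP fused to a ubiquitin-like sequence, and Rack1 a scaffold on the small subunit. Both were higher in HT-Flx than in WT-Flx, with +0.66 (SE 0.09, adjusted p = 5.7e-05) and +0.50 (SE 0.10, adjusted p = 0.00059). With age Fau rose, at +0.36 (SE 0.07, adjusted p = 0.0005) in WT and +0.64 (SE 0.18, adjusted p = 0.008) in HT, and Rack1 passed in neither, at -0.11 and +0.14.

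Ribosome biogenesis factors had more calls toward lower than toward higher values in the fluoxetine groups and with age. This list and that of the translation factors were counted only without the GC and length correction. Between HT-Flx and WT-Flx, where 30.5% of all genes were lower and 33.1% higher, 37 of 69 were lower and 21 higher, with a median of -0.31, among them Nop58, a core protein of box C/D snoRNPs, at -1.15 (SE 0.17, adjusted p = 0.00013) and the kinase Riok2 at -1.11 (SE 0.15, adjusted p = 7.7e-05). With age 29 were lower and 14 higher in WT, including the nucleolar protein Ncl at -0.71 (SE 0.08, adjusted p = 1.2e-05), and 23 and 10 in HT, with medians of -0.16 and -0.04, where 29.4% of all genes were lower and 28.9% higher in WT, and 25.3% and 25.8% in HT. Translation factors and other TOP mRNAs had 12 of 20 lower and 4 higher with age in WT, with a median of -0.31, led by the poly(A)-binding protein Pabpc1 at -0.96 (SE 0.06, adjusted p = 5.3e-08). In HT 6 were lower and 4 higher. Between the fluoxetine groups 7 were higher and 6 lower, with the elongation factor Eef2 at +1.04 (SE 0.11, adjusted p = 3.4e-05) and Npm1 at -0.78 (SE 0.11, adjusted p = 8e-05).

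Genes of the mitochondrial ribosome and of respiration were counted in the same comparisons, beside the same shares of all genes. Of 78 mitochondrial RPs 43 were higher and 6 lower in HT-Flx than in WT-Flx, with a median of 0.30, and of 75 oxidative phosphorylation subunits 53 and 5, with a median of 0.41. Uqcrc1, a core subunit of complex III, was at +1.00 (SE 0.10, adjusted p = 3.1e-05) and Mrpl12 at +0.87 (SE 0.11, adjusted p = 6e-05). With age, oxidative phosphorylation subunits were higher for 37 and lower for 9 in WT, with Ndufs7 of complex I at +1.19 (SE 0.08, adjusted p = 7.2e-08), and higher for 42 and lower for 1 in HT. Mitochondrial RPs split into 16 higher and 19 lower in WT, with a median of -0.01, and 22 and 2 in HT, with a median of 0.15.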

How the data were processed

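RNA from whole brain was sequenced from poly-A libraries (TruSeq), 1 per mouse, 5 per group. Per the labels and the study's methods, the authors quantified paired reads with Salmon 1.1.0 against GRCm38 with GC bias correction, summed transcripts to genes and divided by size factors in DESeq2 1.30.1. The deposited values are this normalized signal; they are not whole reads, so depth is unknown and no count model was used. A value of 1 was added before log2, genes with a mean of at least 10 over the libraries compared were kept, and pairs of groups were fitted with limma 3.58.1 (trended variance, R 4.3.3), with Benjamini-Hochberg adjustment over all genes at 0.05. Differences on this scale understate the change of low genes. Single members also had a two-sided exact permutation test. Transcript lengths, coding sequences and shared 31-base words came from GENCODE (99.9% of identifiers matched), promoters from RefSeq. The fit was tried on simulated data with independent noise for each gene and library. That noise was not shared between genes of a library, as it is in these data, so the trial does not cover this. Members and lists were chosen with earlier results of these data known. Named members were the paralogs and their partners, 10 well-known members, those with the largest differences per comparison, and the extremes of level and spread, and some of these are not reported here. Alternatives covered the pseudocount, filter, scaling, GC and length correction in 10 by 10 bins, the replicate block, variance trend, copies and single libraries. Cell type makeup was not modelled.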

Additional observations from a re-analysis of the deposited data

Results flagged for a closer look

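Within groups of 5, a library was noted where its gap to the nearest of the others exceeded 0.71 of the group's range (Dixon's 95% critical value). Of 132 sets of values, those of named members and of the members' mean level in each group, 15 met this. Chance gives about 1 in 20 for a single set. The sets were not independent, since members moved together by library, so the count has no chance level here. In P10 HT, library 1 stood apart for Rplp0 (9257), Rplp2 (2775) and Rps6 (3793), library 4 for Rpl36al (1426), and library 5 for Rpl7 (5712) and Rpsa (15089). In P10 WT these were library 3 for Rpl10 (1559) and library 4 for Rplp2 (3509).

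Among adults, HT-Veh 3 stood above its group for Rps4x (8455), Rpl36a (5542) and Rpl36al (2626), and HT-Flx 1 for Rplp0 (12134). WT-Flx 1 stood apart for Rpl36al (1042), WT-Veh 4 for Rpl39 (2475) and WT-Veh 5 for Rps27 (210.0).

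The interaction of genotype and fluoxetine passed the threshold in limma for Rpl14 (0.73), Rps9 (0.58), Rplp0 (0.51) and Rpl5 (-1.14), on the log2 scale. Of all genes, 27.3% were called. None of these was called after the GC and length correction.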

How the results depend on the processing

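Values without read depth give no counting error, and 5 mice per group limit each test. The interaction count of 5 became 2 with no filter on low values (22.3% of all genes called), 10 with a minimum mean of 100 (41.6%), 1 with limma without trend (21.0%), 0 after the GC and length correction (0%), 0 without the number 2 vehicle libraries (0%) and 32 without HT-Flx 1 and HT-Veh 3 (25.3%). Leaving out 1 library gave 0 to 39 members in the interaction. The 39 came without HT-Veh 3, beside 37.1% of all genes. The share of all genes was largest, at 43.0%, without HT-Veh 1, where 16 members were called. For WT-Flx against WT-Veh, leaving out 1 library gave 0 to 5 members, beside 0% to 7.84% of all genes. Scaled to a common total, the median member was 0.24 for HT-Flx against WT-Flx and -0.0092 for WT at P120 against P10, and -0.0373 there after the GC and length correction, which also turned Rpl3 (-0.0167) and Rplp2 (-0.0435). The SD of the members' level within a group was 0.16 in HT-Flx and 0.0317 in WT-Flx after that correction, and over single libraries left out ranged from 0.0379 to 0.0674 in P10 HT, 0.0374 to 0.0649 in P10 WT, 0.12 to 0.30 in HT-Flx and 0.25 to 0.46 in HT-Veh. The cause was not tested. Of 1177 alternative values for the 51 named calls, 1039 kept direction and call, 134 missed the threshold and 4 turned.

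The labels do not say whether a shared replicate number marks a pair of libraries. For HT-Flx with HT-Veh, the deviations of libraries of the same number had correlations of -0.02 to 0.41. Their mean was 0.18, against -0.04 for libraries of different numbers. For HT-Veh with WT-Veh the correlations were -0.30 to 0.23, with means of -0.013 and 0.005. Whether the number marks a shared batch or litter was not tested. With the number as a replicate block, 2 members were called for HT-Flx against HT-Veh, 1 higher and 1 lower, beside 7.67% of all genes, and 7 in the interaction, beside 31.1%. With the block and the GC and length correction the interaction gave 0, the WT age median was -0.0373, and Rpl3 and Rplp2 stood at -0.0167 and -0.0435. The block moved no other count of calls by over 1.5 times.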

Other observations

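In the interaction between genotype and fluoxetine, where 15.8% of all genes were called higher and 11.5% lower, 13 of 75 oxidative phosphorylation subunits were higher and 2 lower (median log2 difference 0.27), and 15 and 2 of 78 mitochondrial ribosomal proteins (median 0.19). Ribosome biogenesis factors had 7 higher and 21 lower of 69 (median -0.28), and translation factors and other TOP mRNAs 4 and 3 of 20. Neither Fau nor Rack1 was called. These lists were counted only without the GC and length correction.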
